A study of Rattus norvegicus with 18 samples.

Results

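The circadian clock genes of the rat lung were examined in the RNA-seq data of 18 male F344 rats. The 10 genes, Arntl, Clock, Npas2, Per1, Per2, Per3, Nr1d1, Nr1d2, Dbp, and Tef, were the entries of the 3 deposited expression tables that carried these names, and all 10 were found among 22081 genes. The rats had received vehicle (0 mg/kg) or 0.5 mg/kg of the multiwalled carbon nanotube (MWCNT) MWNT-7, suspended in saline with Tween 80, by intratracheal instillation every 4 weeks from 9 weeks of age. Lungs were taken at week 26 (Year 0.5), at week 52 (Year 1), and at the end of the study (Year 2), when the rats were 35, 61, and 113 weeks old. Each of the 6 groups held 3 rats, and every rat was a separate animal. The RNA came from pieces of the accessory lobe without tumor nodules, and necropsy under isoflurane took place between 9 and 12 in the morning on a 12 h light and dark cycle. The hour of lights-on and the hour at which each rat was killed are not given in the sources used here. Treatment and year were crossed in the design. However, the hour of collection within that window, and any step done year by year, cannot be told apart from the year. The hour may also have differed between treated and control rats of a year, and then it cannot be told apart from treatment.

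The clock is a feedback loop of transcription. BMAL1, the product of Arntl, pairs with CLOCK or its relative NPAS2, binds E-box sequences, and turns on the Per, Cry, and Nr1d genes and the genes of the PAR bZIP factors DBP and TEF. The PER proteins, together with the CRY proteins, then block BMAL1, while the REV-ERB receptors encoded by Nr1d1 and Nr1d2 repress Arntl through ROR elements. DBP and TEF bind D-box sequences and carry the rhythm to output genes. In the lung the clock runs in epithelial cells, macrophages, and other cell types, and Arntl RNA peaks at a different time of day from Nr1d1, Dbp, and the Per genes.

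The sequence motifs of this loop were looked for in the 250 bases before the start of each gene, taken from RefSeq on the GRCr8 assembly, which is not the build of the expression tables. All 10 genes were matched, Arntl under its current symbol Bmal1. Of the motifs searched on both strands, the E-box CACGTG was found in 5.79% of 27457 rat promoters of that length, the D-box TTANGTAA in 2.02%, the ROR element (AANT followed directly by AGGTCA) in 0.204%, and the cyclic AMP element TGACGTCA in 1.70%. The shorter half-site AGGTCA, which is contained in the ROR element, was found in 13.7%. The promoters of Arntl, Per2, and Tef are shown because each holds one of the elements through which these genes act on each other, with the motif in capitals. Each is given 5′ to 3′ on the strand of its gene.
Arntl, ROR element at -19 to -10 from the start, chr1:176766078-176766327, plus strand: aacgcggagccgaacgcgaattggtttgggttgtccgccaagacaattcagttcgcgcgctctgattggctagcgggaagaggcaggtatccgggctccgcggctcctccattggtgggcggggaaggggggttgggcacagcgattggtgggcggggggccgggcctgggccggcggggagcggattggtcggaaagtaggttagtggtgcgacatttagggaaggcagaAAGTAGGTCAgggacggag
Per2, D-box at -192 to -185 from the start, chr9:99496994-99497243, minus strand: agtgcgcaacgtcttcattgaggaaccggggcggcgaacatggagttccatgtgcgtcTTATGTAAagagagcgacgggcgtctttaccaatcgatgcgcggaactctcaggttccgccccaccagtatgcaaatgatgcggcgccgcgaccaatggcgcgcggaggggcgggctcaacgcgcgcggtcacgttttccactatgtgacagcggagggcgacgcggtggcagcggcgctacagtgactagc
Tef, E-box at -198 to -193 from the start, chr7:115206577-115206826, plus strand: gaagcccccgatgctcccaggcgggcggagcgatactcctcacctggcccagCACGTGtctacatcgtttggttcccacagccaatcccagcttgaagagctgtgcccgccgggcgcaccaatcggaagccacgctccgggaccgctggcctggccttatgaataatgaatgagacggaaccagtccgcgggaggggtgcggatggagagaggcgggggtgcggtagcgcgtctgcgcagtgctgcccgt
The promoter of Nr1d2 held the half-site alone. None of these motifs was found in this window of the other 6 clock genes, and matches of letters do not show binding.

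Levels are given as length-scaled TPM, and fold changes come from the counts after TMM normalization with the quasi-likelihood test of edgeR. The libraries held 13297643 to 21130757 counts, the clock genes had between 152 counts (Dbp) and 4694 counts (Per1) in a rat, and all 10 passed the filter on low counts in every comparison. A gene was called a DEG at an FDR below 0.05 with an absolute log2 fold change above 1, and is said to have fallen or risen where its FDR alone was below 0.05. On library size alone, without TMM, the median of all genes lay at -0.12, -0.13, and -0.18 on the log2 scale in MWCNT-treated rats at Years 0.5, 1, and 2. TPM values carry such a shift too, so that differences in TPM run lower than the fold changes given beside them. The lung identity of the tissue was checked with alveolar type 2 markers, whose summed level was 22332 to 29868 TPM in control rats and 37689 to 45631 TPM in MWCNT-treated rats, with 5, 4, and 5 of the 5 rising at Years 0.5, 1, and 2. The 6 macrophage markers (Cd68, Marco, Msr1, Lgals3, Mrc1, Adgre1) rose with treatment at every year, from 424 to 556 TPM summed in control rats to 1671 to 3194 TPM. The 3 endothelial markers measured (Cdh5, Kdr, Tek) fell at every year, from 770 to 1110 TPM summed to 226 to 529 TPM, and the 4 alveolar type 1 markers summed to 4240 to 5003 TPM in control rats and to 2294 to 3295 TPM in treated rats. The fibroblast and smooth muscle markers summed to 738 to 1370 TPM in control rats and to 483 to 776 TPM in treated rats, although 1 of them, Col1a1, rose at Years 0.5 and 2, and the heart muscle markers to 72.9 to 670 TPM and 15.6 to 202 TPM. The airway marker Scgb1a1 fell at every year, from 17673 to 32241 TPM in control rats to 10255 to 15208 TPM. The lymphocyte markers summed to 79.5 to 112 TPM and 26.1 to 70.7 TPM, and the neutrophil markers to 183 to 325 TPM and 337 to 1099 TPM, in control and treated rats. No marker was at 0 in all rats, and the part of these shifts in the clock genes was not tested. In such tissue, fewer cells of a type and less RNA per cell cannot be told apart.

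MWCNT treatment was compared with control at each year to ask whether the clock genes differed between treated and untreated lungs. Tef, Npas2, Per3, and Nr1d2 fell at all 3 years, Arntl fell at Years 0.5 and 2, and Clock fell at Years 1 and 2. No clock gene rose at any year in this test, although Per1 did at Year 0.5 without the third control rat. Per1, Per2, Nr1d1, and Dbp did not pass the FDR of 0.05 at any year. The count of falling clock genes was 5 of 10 at Year 0.5, where 18.6% of all 14315 genes tested fell, 5 of 10 at Year 1 against 19.6% of 14345, and 6 of 10 at Year 2 against 24.0% of 14361. The median log2 fold change of the 10 genes was -0.23, -0.44, and -0.41, and that of all genes was -0.02, 0.00, and -0.01. None was a DEG at any year by edgeR, where 3.03%, 4.09%, and 8.22% of all genes were DEGs with lower levels, nor by DESeq2. At an unadjusted p below 0.05, edgeR counted 6, 7, and 9 of the 10 genes, and 6842, 7196, and 8032 of all genes tested. At an FDR below 0.05 in DESeq2, 4, 6, and 7 of the 10 genes fell, and 2511, 2812, and 3228 of all genes did.

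**Figure D1:**
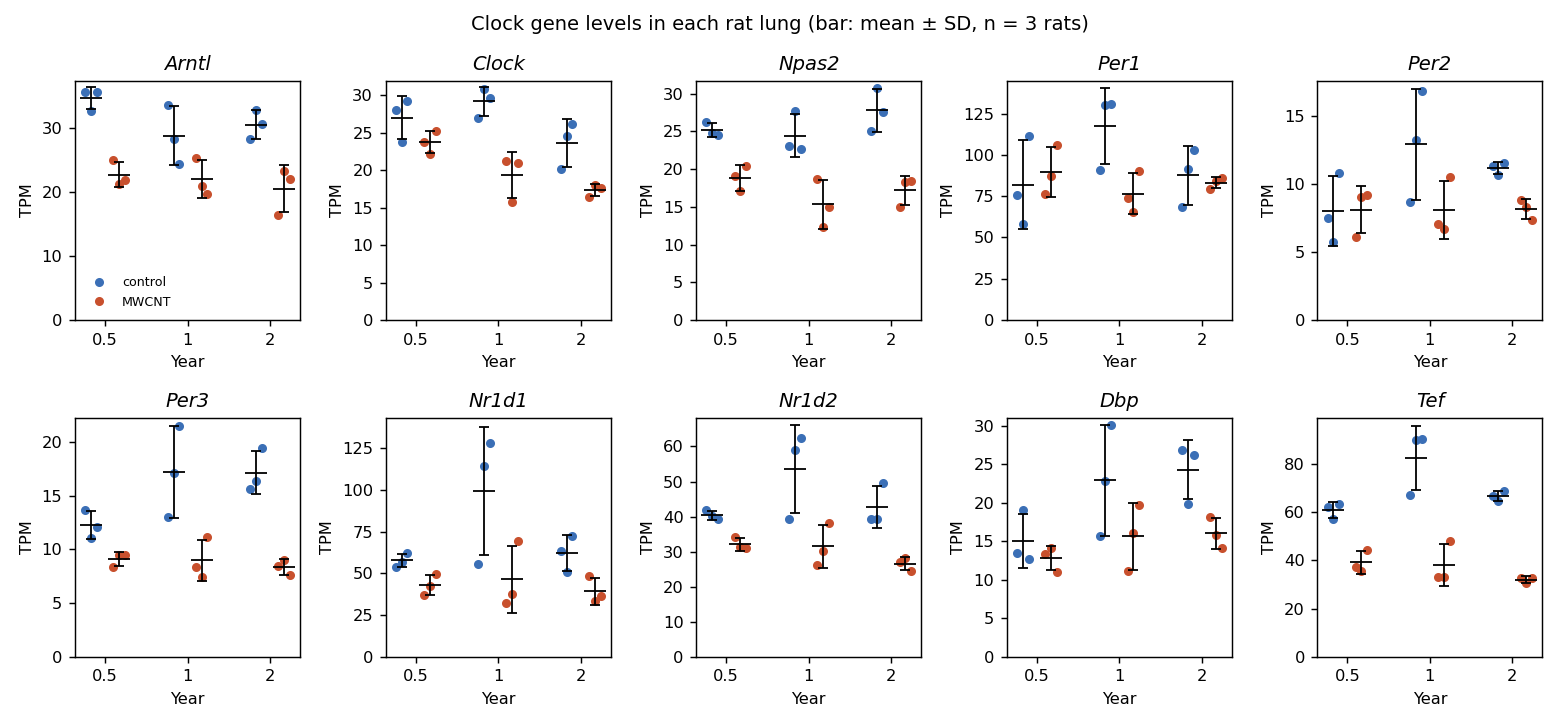
Level in TPM (vertical axes, from 0) of each clock gene in each rat, by year (horizontal axes), with control rats in blue and MWCNT-treated rats in orange. Bars give the mean and SD of 3 rats. The treated rats lay below the control rats of the same year in Tef, Npas2, Per3, and Nr1d2 at all 3 years, and the control rats of Year 1 spread widely in Nr1d1, from 55.7 to 128 TPM.

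Tef (ENSRNOG00000019383, chr7:123043503-123058604, plus strand, Rnor_6.0), the PAR bZIP gene whose promoter with an E-box is printed above, had the lowest log2 fold change of the 10 at each year, by less than its standard error from the next gene. In control rats it stood at 62.2, 57.0, and 63.2 TPM at Year 0.5, at 67.0, 89.9, and 90.4 TPM at Year 1, and at 66.9, 64.7, and 68.7 TPM at Year 2. In treated rats it stood at 37.3, 35.6, and 44.4 TPM, at 33.2, 32.9, and 48.0 TPM, and at 32.8, 30.4, and 32.8 TPM. The highest treated rat of any year lay below the lowest control rat of any year. Tef fell by 0.49 ± 0.08 on the log2 scale (SE, n = 3 rats per group, edgeR FDR 0.0018) at Year 0.5, by 0.88 ± 0.15 (FDR 0.00202) at Year 1, and by 0.84 ± 0.07 (FDR 1.69e-05) at Year 2. These calls held under all 12 alternatives at each year. Without TMM the falls at Years 1 and 2 passed the fold limit for a DEG, and at Year 1 so did that without the third treated rat.

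Dbp (ENSRNOG00000021027, chr1:101687855-101692846, plus strand), the other PAR bZIP gene of the group, was the clock gene with the fewest counts. Its levels in control rats were 13.4, 19.0, and 12.6 TPM at Year 0.5, 15.7, 22.9, and 30.1 TPM at Year 1, and 26.8, 19.8, and 26.2 TPM at Year 2. In treated rats they were 13.4, 14.1, and 10.996 TPM, 11.1, 16.1, and 19.7 TPM, and 18.1, 15.8, and 14.1 TPM. Treated and control rats overlapped at Years 0.5 and 1. The log2 fold change was -0.08 ± 0.18 (edgeR FDR 0.758), -0.31 ± 0.25 (FDR 0.346), and -0.39 ± 0.16 (FDR 0.0745) at Years 0.5, 1, and 2. At Year 2 the rats of both groups did not overlap in TPM but did overlap after TMM normalization, and without TMM the FDR was 0.0144.

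Among the Per genes, which encode the repressors of BMAL1, only Per3 differed from control in the test. Per3 (ENSRNOG00000018413, chr5:168086998-168123395, minus strand) stood at 13.7, 11.03, and 12.1 TPM in the control rats of Year 0.5, at 12.98, 17.1, and 21.5 TPM at Year 1, and at 15.6, 16.4, and 19.5 TPM at Year 2. The treated rats stood at 8.41, 9.46, and 9.45 TPM, at 8.35, 7.46, and 11.1 TPM, and at 8.42, 9.03, and 7.61 TPM. The treated rats were below the control rats of their year without overlap at every year, while the level in treated rats stayed in the same range over the years. Per3 fell by 0.29 ± 0.10 (edgeR FDR 0.0484) at Year 0.5, by 0.71 ± 0.18 (FDR 0.0135) at Year 1, and by 0.82 ± 0.10 (FDR 0.000188) at Year 2. The call at Year 2 held under all 12 alternatives and that at Year 1 under 11, but that at Year 0.5 held under only 3.

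Per1 (ENSRNOG00000007387, chr10:55687050-55695994, plus strand), which responds to acute signals as well as to the clock, stood at 75.8, 58.4, and 111 TPM in control rats at Year 0.5, at 90.7, 130 and 131 TPM at Year 1, and at 68.1, 91.3, and 103 TPM at Year 2. Treated rats had 76.0, 87.1, and 106 TPM, 74.0, 65.6, and 90.2 TPM, and 79.4, 84.0, and 85.8 TPM. The sign of its difference was not the same at each year, with log2 fold changes of 0.28 ± 0.21 (edgeR FDR 0.319), -0.38 ± 0.14 (FDR 0.0579), and 0.14 ± 0.12 (FDR 0.326). At Year 2 the value without TMM was -0.027. Per2 (ENSRNOG00000020254, chr9:98555169-98597359, minus strand), whose promoter holds a D-box, stood at 5.76 to 10.8 TPM, 8.69 to 16.9 TPM, and 10.7 to 11.6 TPM in control rats and at 6.15 to 9.22 TPM, 6.73 to 10.5 TPM, and 7.38 to 8.81 TPM in treated rats. Its log2 fold changes were 0.17 ± 0.23 (FDR 0.584), -0.44 ± 0.23 (FDR 0.149), and -0.24 ± 0.10 (FDR 0.0769).

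Of the REV-ERB genes, Nr1d2 fell at all 3 years while Nr1d1 did not pass the test at any. Nr1d2 (ENSRNOG00000046912, chr15:8730871-8757165, plus strand), which encodes REV-ERBβ, stood at 41.7, 40.1, and 39.3 TPM in control rats at Year 0.5, at 39.3, 59.0, and 62.5 TPM at Year 1, and at 39.3, 39.4, and 49.6 TPM at Year 2. Treated rats had 34.1, 31.2, and 30.9 TPM, 26.2, 30.2, and 38.2 TPM, and 27.1, 28.1, and 24.6 TPM. In TPM the groups did not overlap at any year, but at Year 1 they overlapped after TMM normalization. Nr1d2 fell by 0.19 ± 0.07 (edgeR FDR 0.0487), by 0.53 ± 0.18 (FDR 0.0393), and by 0.47 ± 0.10 (FDR 0.00386). The call at Year 2 held under all 12 alternatives, that at Year 1 under 8, and that at Year 0.5 under 4.

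Nr1d1 (ENSRNOG00000009329, chr10:86683875-86690815, minus strand), which encodes REV-ERBα, was the clock gene with the widest spread between rats of a group. Control rats had 54.1, 57.0, and 62.1 TPM at Year 0.5, 55.7, 114, and 128 TPM at Year 1, and 63.1, 50.7, and 72.2 TPM at Year 2. Treated rats had 37.0, 42.3, and 49.4 TPM, 32.1, 37.8, and 69.4 TPM, and 48.5, 33.2, and 36.5 TPM. One control rat and one treated rat of Year 1 crossed each other, while the groups of Years 0.5 and 2 did not overlap in TPM. After TMM normalization the groups of Year 2 did overlap. The log2 fold changes were -0.28 ± 0.10 (edgeR FDR 0.0565), -0.86 ± 0.33 (FDR 0.0616), and -0.44 ± 0.17 (FDR 0.0595). The FDR was below 0.05 under 4, 6, and 6 of the 12 alternatives. At Year 1 the value was -1.14 without the first control rat and -1.25 without the third treated rat, each past the DEG criterion.

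Among the activators, Arntl (ENSRNOG00000014448, chr1:178039063-178137465, plus strand), the gene with the ROR element, stood at 35.7, 32.7, and 35.6 TPM in control rats at Year 0.5, at 33.6, 28.3, and 24.4 TPM at Year 1, and at 28.3, 32.7, and 30.6 TPM at Year 2. Treated rats had 25.0, 21.3, and 21.9 TPM, 25.3, 20.9, and 19.7 TPM, and 16.4, 23.2, and 22.02 TPM. The groups overlapped only at Year 1, through the lowest control rat and the highest treated rat. Arntl fell by 0.47 ± 0.08 (edgeR FDR 0.00201) at Year 0.5 and by 0.36 ± 0.11 (FDR 0.029) at Year 2, and the log2 fold change at Year 1 was -0.15 ± 0.14 (FDR 0.402). The call at Year 0.5 held under all 12 alternatives and that at Year 2 under 10.

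Npas2 (ENSRNOG00000013408, chr9:45901741-46081880, plus strand), a partner of BMAL1, stood at 26.2, 24.8, and 24.5 TPM, at 23.0, 27.7, and 22.6 TPM, and at 25.0, 30.7, and 27.5 TPM in the control rats of Years 0.5, 1, and 2. Treated rats had 19.1, 17.0, and 20.4 TPM, 18.7, 12.3, and 14.9 TPM, and 14.98, 18.2, and 18.4 TPM. Every treated rat lay below every control rat at each year. Npas2 fell by 0.28 ± 0.08 (edgeR FDR 0.0197), by 0.44 ± 0.13 (FDR 0.0246), and by 0.47 ± 0.09 (FDR 0.0025), and these calls held under 8, 9, and 12 of the 12 alternatives. Clock (ENSRNOG00000002175, chr14:34446616-34502218, plus strand), the other partner, stood at 28.1, 23.7, and 29.2 TPM, at 27.0, 30.8, and 29.7 TPM, and at 20.1, 24.6, and 26.2 TPM in control rats. Treated rats had 23.8, 22.2, and 25.2 TPM, 21.2, 15.8, and 21.001 TPM, and 16.4, 17.97, and 17.6 TPM. The groups overlapped at Year 0.5 and not at Years 1 and 2. The log2 fold change was -0.04 ± 0.08 (FDR 0.709) at Year 0.5, and Clock fell by 0.36 ± 0.09 (FDR 0.0141) at Year 1 and by 0.23 ± 0.08 (FDR 0.0444) at Year 2. The call held under 10 alternatives at Year 1 and under 5 at Year 2.

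**Figure D2:**
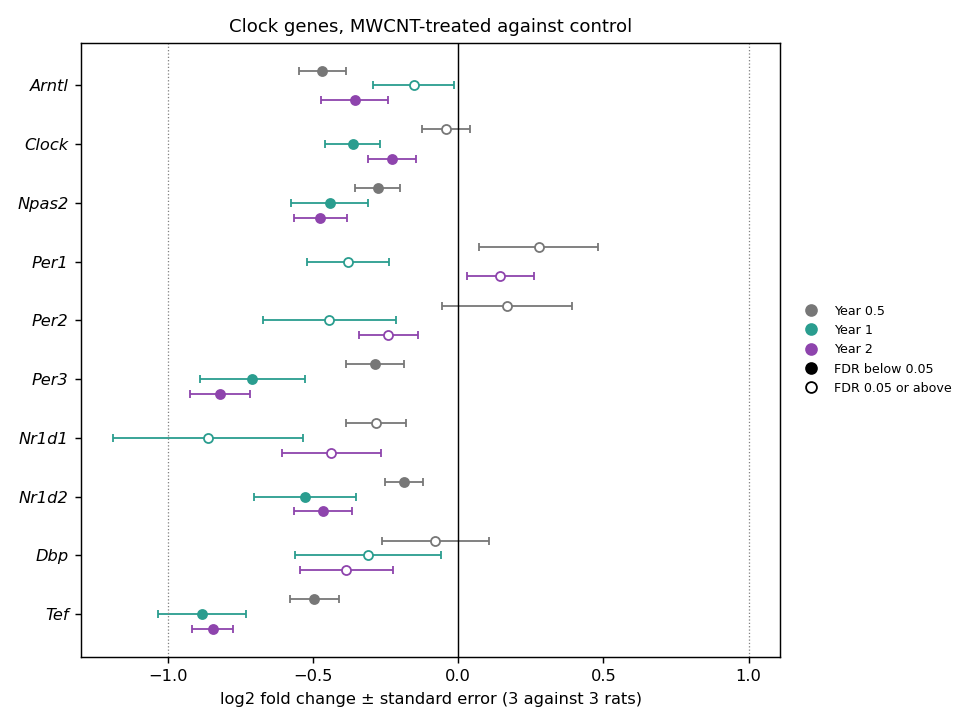
Log2 fold change of each clock gene in MWCNT-treated against control rats, with its standard error, at Years 0.5, 1, and 2 (3 against 3 rats). Filled points have an FDR below 0.05, and the dotted lines at -1 and 1 mark the fold limit for a DEG. The filled points all lie left of 0, and the lowest of them is Tef at Year 1, at -0.88.

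Counted by rats on the TMM scale, all treated rats lay below all control rats in 6 clock genes at Year 0.5, 4 at Year 1, and 6 at Year 2, where 25.0%, 26.4%, and 28.5% of all 14843 genes did so. In TPM the counts were 6, 6, and 9, against 39.8%, 45.8%, and 45.0% of all genes. No clock gene had all treated rats above all control rats on either scale. The Year 1 counts of falling genes rested on single rats. It was 8 without the first control rat and 2 without the second or without the third control rat, and 3 without the second treated rat. At Year 0.5 it was 2 without the first control rat or the second treated rat and 3 without the first treated rat. The counts of all genes with these rats left out are not given here, so these changes cannot be called particular to the clock genes.

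The change of the treatment effect over time was tested directly. In the model of all 18 rats no clock gene passed an FDR of 0.05 for any of the 3 interactions of treatment and time by edgeR or by DESeq2, where 0.00%, 1.31%, and 0.478% of all genes passed by edgeR. At an unadjusted p below 0.05 there were 3 clock genes between Years 0.5 and 1 (Clock, Per1, and Tef), 1 between Years 0.5 and 2 (Per3), and 0 between Years 1 and 2, where 1260, 2055, and 2446 of all 14843 genes had such a p. The effect on Per3 was lower at Year 2 than at Year 0.5 by a log2 difference of -0.53 ± 0.22 (edgeR FDR 0.279), and the effect on Per1 at Year 1 was lower than at Year 0.5 by -0.67 ± 0.27 (FDR 0.556). The larger falls of Tef and Per3 at the later years were thus not shown to differ from those at Year 0.5.

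The years were compared within the control rats, whose lungs received vehicle only, to see how far the clock genes differed without nanotubes. The same control rats also enter the comparisons with treatment, so these comparisons are not independent. From Year 0.5 to Year 1, Per1, Per2, Per3, Nr1d1, Nr1d2, Dbp, and Tef were higher on average, with log2 differences of 0.39 (Nr1d2) to 0.76 (Nr1d1), and Arntl was lower, at -0.29 ± 0.13. None of the 10 passed an FDR of 0.05, and neither did any of the 14843 genes tested by edgeR (0.00%), while DESeq2 called 0 clock genes and 21 genes in all. At an unadjusted p below 0.05 the count was 8 of the 10 clock genes and 1041 of all genes. The median log2 difference of the clock genes was 0.44, and that of all genes was 0.00. The values of the 8 were Tef at 0.42 ± 0.12 (edgeR FDR 0.503), Per3 at 0.46 ± 0.15 (FDR 0.559), Per2 at 0.67 ± 0.23 (FDR 0.589), Nr1d1 at 0.76 ± 0.27 (FDR 0.59), Nr1d2 at 0.39 ± 0.14 (FDR 0.604), Per1 at 0.50 ± 0.19 (FDR 0.642), Dbp at 0.59 ± 0.24 (FDR 0.661), and Arntl at -0.29 ± 0.13 (FDR 0.678). Clock and Npas2 differed by 0.09 ± 0.09 and -0.06 ± 0.11. Only Tef had all 3 rats of Year 1 above all 3 of Year 0.5, where 5.48% of all genes did so on the TMM scale.

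The 3 control rats of Year 1 did not have the same levels. The first of them had the highest Arntl level of the group, 33.6 TPM, and the lowest levels of Per1, Per2, Per3, Nr1d1, Nr1d2, Dbp, and Tef. Its Nr1d1 level of 55.7 TPM lay among those of Year 0.5, at 54.1 to 62.1 TPM, and its Nr1d2 level of 39.3 TPM among 39.3 to 41.7 TPM. The other two had Nr1d1 levels of 114 and 128 TPM. The third rat had the lowest Arntl level, 24.4 TPM, and the highest levels of all 7 of the other genes. The same rats differed in genes induced by glucocorticoids, hormones whose level also follows the time of day. Klf9, a transcription factor of this kind, stood at 79.3, 191, and 179 TPM, Pdk4, a kinase of fuel metabolism, at 16.4, 54.9, and 38.8 TPM, and Tsc22d3, which encodes GILZ, at 356, 720, and 637 TPM. In all 3 genes the first rat was the lowest of the 3. The treated rats of Year 1 differed in these genes too, and the third of them was the highest in each. They had 66.0, 65.3, and 111 TPM of Klf9, 14.0, 20.1, and 25.5 TPM of Pdk4, and 261, 320, and 396 TPM of Tsc22d3. Over the 8 glucocorticoid-induced genes, the median difference between Years 0.5 and 1 in control rats was 0.73 on the log2 scale. By edgeR 0 had an FDR below 0.05 and 7 an unadjusted p below 0.05. Of these 7, Dusp1 and Sgk1 went the other way, at -0.40 ± 0.15 (FDR 0.631) and -0.23 ± 0.09 (FDR 0.67), and were named after their values were seen. The part of hormone level or hour in the clock genes was not tested.

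From Year 0.5 to Year 2 the clock genes of the control rats had a median log2 difference of 0.13, 0 of them passed an FDR of 0.05, where 6.65% of all genes did, and 2 had an unadjusted p below 0.05, as did 3565 of all 14843 genes. These were Dbp, at 0.70 ± 0.24 (edgeR FDR 0.081), and Per3, at 0.49 ± 0.15 (FDR 0.0617). DESeq2 called both at an FDR below 0.05, and it called 1491 of all genes. All 3 rats of Year 2 were above all 3 of Year 0.5 in Per3, Dbp, and Tef, where 11.6% of all genes were so, and all were lower in Arntl, where 14.2% were so, both on the TMM scale. From Year 1 to Year 2 none passed by edgeR, where 7.93% of all genes did. DESeq2 called Clock alone of the clock genes, and it called 1747 of all genes. By edgeR 4 had an unadjusted p below 0.05, as did 3846 of all genes. The 4 were Clock at -0.28 ± 0.09 (FDR 0.0694), Nr1d1 at -0.65 ± 0.27 (FDR 0.14), Tef at -0.28 ± 0.12 (FDR 0.163), and Nr1d2 at -0.30 ± 0.14 (FDR 0.192). Without the first control rat of Year 1 there were 3 calls, Nr1d1 at -0.92 among them. The count of all genes without this rat is not given here. Klf9, Pdk4, and Tsc22d3 were DEGs between these years, with log2 differences of -1.23 ± 0.29 (FDR 0.0184), -1.77 ± 0.42 (FDR 0.0211), and -1.06 ± 0.26 (FDR 0.023).

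**Figure D3:**
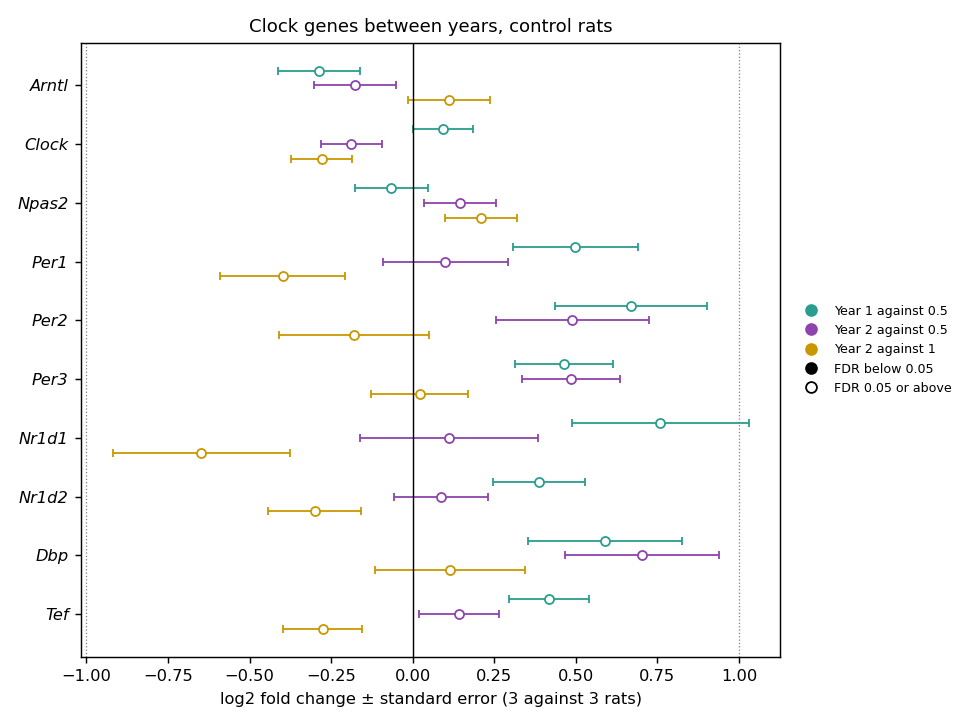
Log2 difference of each clock gene between years in the control rats, with its standard error (3 against 3 rats), from one model of all 18 rats. Open points have an FDR of 0.05 or above, and all 30 points are open. From Year 0.5 to Year 1, Nr1d1 had the highest value, 0.76, and Arntl the lowest, -0.29.

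Within the MWCNT-treated rats, Clock was the only 1 of the 10 clock genes to pass an FDR of 0.05 between years. It fell by 0.37 ± 0.09 from Year 0.5 to Year 2 (edgeR FDR 0.0143), where 6.87% of all genes fell. A count of 1 of 10 is near that share. The call was lost without the third treated rat of Year 0.5 or the first of Year 2 (FDR of 0.0566 at most). No clock gene passed between Years 0.5 and 1, where 0.101% of all genes did, or between Years 1 and 2, where 5.94% did, by edgeR or DESeq2, with 2 and 0 at an unadjusted p below 0.05, as had 1371 and 3020 of all genes. The median log2 difference of the clock genes from Year 0.5 to Year 1 was 0.03 in treated rats. The differences of Years 1 and 0.5 were 0.02 ± 0.12 for Tef, 0.04 ± 0.15 for Per3, and 0.17 ± 0.27 for Nr1d1.

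The clock genes also differed between rats of the same group, and in some of them these differences went with those of Arntl. Deviations of log2 CPM from the group mean were compared between Arntl and the 9 other genes over the 18 rats, so that year and treatment were removed. Nr1d1 was lower in the rats where Arntl was higher, with Pearson's r of -0.90 (exact permutation within groups, two-sided, raw p 0.000343, p 0.00309 adjusted over 9) and Spearman's rho of -0.86 (adjusted p 0.00694). Dbp had r of -0.76 (raw p 0.00317, adjusted p 0.0143) and rho of -0.78 (adjusted p 0.00897). Tef, with r of -0.72 (raw p 0.0115), and Per2, with r of -0.65 (raw p 0.0132), passed for Pearson's r at an exact permutation adjusted p of 0.0297 each, but not for rho, at -0.66 and -0.62 (adjusted p 0.0614 each). Nr1d2 and Per3, at r of -0.67 and -0.65, did not pass (exact permutation, raw p 0.0406 and 0.0438, adjusted p 0.0657 each). Npas2, Per1, and Clock had r of 0.49, -0.29, and 0.07 (exact permutation, adjusted p 0.168, 0.235, and 0.793) and rho of 0.51, -0.26, and 0.09. The share of all genes that would pass this test with Arntl was not computed, so these relations cannot be called particular to the clock genes.

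The 2 rats whose Arntl deviation from the group mean lay farthest from the median deviation were then left out. They were the first control rat of Year 1 and the first treated rat of Year 2. Without them r was -0.86 for Nr1d1 (exact permutation, adjusted p 0.0278) and -0.70 for Dbp (adjusted p 0.173). The relation of Dbp, and those of Tef (r -0.66) and Per2 (r -0.53), thus no longer held in the test. Without the rats of Year 1, Nr1d1 had r of -0.86 and Dbp of -0.50, and none of the 9 passed. In control rats alone, r was -0.91 for both Nr1d1 (exact permutation, adjusted p 0.146) and Dbp (adjusted p 0.0833), and in treated rats alone it was -0.90 (adjusted p 0.0417) and -0.64 (adjusted p 0.25). The spread that these relations describe was larger in some genes than in most of the 14843 genes. The pooled within-group SD of log2 CPM was 0.39 for Nr1d1, at the 86.2 percentile of all genes, 0.33 for both Per2 and Dbp, at the 81.7 percentile each, and 0.12 for Clock, at the 34.9 percentile, with a median of 0.15 over all genes.

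**Figure D4:**
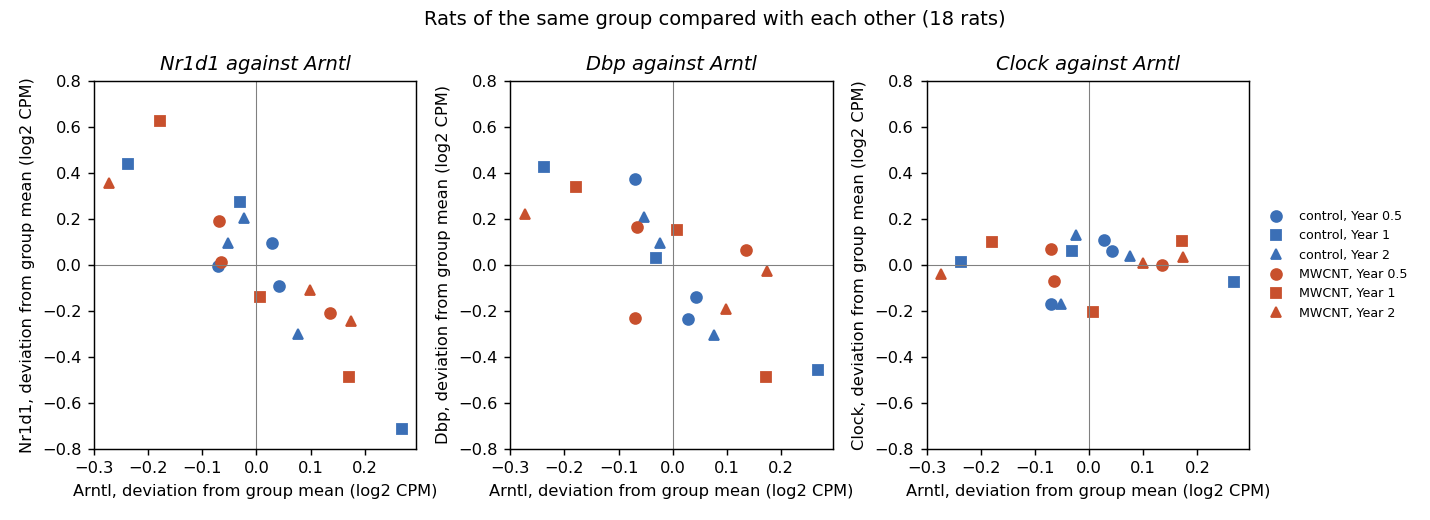
Deviation of Nr1d1, Dbp, and Clock (vertical axes) from the group mean, plotted against that of Arntl (horizontal axes), in log2 CPM, for the 18 rats. Colors mark the treatment and symbols the year. The points of Nr1d1 fall from upper left to lower right (r of -0.90), those of Dbp do so with more scatter (-0.76), and those of Clock are level (0.07).

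The difference of Dbp and Arntl in log2 CPM sets an output gene against an activator within each rat. In control rats it was -2.20, -1.58, and -2.28 at Year 0.5, -1.89, -1.11, and -0.50 at Year 1, and -0.88, -1.52, and -1.02 at Year 2. In treated rats it was -1.69, -1.39, and -1.78, -1.98, -1.17, and -0.80, and -0.65, -1.35, and -1.44. Treated and control rats overlapped at every year, and the widest range was that of the control rats of Year 1. The genes outside the clock set whose log2 CPM over the 18 rats was most like that of Dbp were Socs1 (r 0.73), Slc27a2 (0.72), and Il15ra, Il18rap, and Cxcr3 (0.71, 0.71, and 0.70). Those most like Arntl were Lmcd1, Medag, Dusp8, Ccnd1, and Rnf144a (r 0.90, 0.90, 0.90, 0.90, and 0.89). Group means were not removed here, so that differences between treatments and between years enter the r values of this comparison. Of the clock genes themselves, Per3, Nr1d1, and Nr1d2 had r of 0.64, 0.64, and 0.60 with Dbp, at ranks 19, 24, and 47 among all genes. Npas2 had the highest r of the clock genes with Arntl, 0.70, but only rank 1010 among all genes.

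Other genes of the clock were taken from lists of 11 further transcription factors and repressors and 7 kinases and ubiquitin ligases. Of the first list, 3 rose and 2 fell at Year 0.5, 3 rose and 1 fell at Year 1, and 3 rose and 3 fell at Year 2, of 9, 9, and 10 tested. Of all genes, 20.2%, 21.6%, and 25.2% rose and 18.6%, 19.6%, and 24.0% fell. The genes of the list that rose were the repressors Bhlhe40 (DEC1), Bhlhe41 (DEC2), and Nfil3 at every year. Bhlhe41, which binds E-boxes, had 8.96, 11.6, and 15.6 TPM in the control rats and 41.4, 53.4, and 45.3 TPM in the treated rats of Year 0.5. At Year 1 it had 12.2, 12.4, and 13.6 TPM against 45.9, 48.6, and 42.4 TPM, and at Year 2 9.67, 9.79, and 10.9 TPM against 57.4, 53.7, and 56.8 TPM. The groups were far apart at every year, and Bhlhe41 was a DEG at each, with log2 fold changes of 2.11 ± 0.19 (edgeR FDR 7.07e-05), 2.08 ± 0.12 (FDR 4.92e-06), and 2.68 ± 0.10 (FDR 2.98e-07). Bhlhe40 rose by 1.17 ± 0.15, 0.85 ± 0.07, and 1.02 ± 0.09 and was a DEG at Years 0.5 and 2. Nfil3, which binds the same D-boxes as DBP and TEF, rose by 0.63 ± 0.11, 0.64 ± 0.13, and 0.79 ± 0.12.

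Cry2, which encodes a partner of the PER proteins, fell at every year, by 0.62 ± 0.08, 0.68 ± 0.09, and 0.75 ± 0.08 (edgeR FDR 0.000333, 0.000559, and 9.74e-05), whereas Cry1 had values of 0.08 ± 0.08, 0.20 ± 0.12, and -0.34 ± 0.12 and passed at Year 2 only (FDR 0.0383). Cry2 stood at 24.1 to 28.7 TPM in the 9 control rats and at 12.4 to 16.3 TPM in the 9 treated rats, without overlap. Hlf, the third PAR bZIP gene, fell by 0.74 ± 0.24 at Year 0.5 (FDR 0.0413) and by 1.03 ± 0.28 at Year 2 (FDR 0.0146). It was a DEG at Year 2, with only 38 to 46 counts in control rats and 19 to 23 in treated rats. At Year 1 it had a value of -0.32 ± 0.31 (FDR 0.438). Ciart, a repressor of BMAL1 whose promoter held 3 E-boxes, had values of -0.05 ± 0.38, 0.09 ± 0.45, and -0.03 ± 0.40 and did not pass. It had only 7 to 20 counts in a rat. Of the 7 kinases and ubiquitin ligases, 3, 2, and 1 fell and 0 rose at Years 0.5, 1, and 2, where 18.6%, 19.6%, and 24.0% of all genes fell. The only DEG of the 7 at any year was the ubiquitin ligase gene Fbxl21 at Year 0.5. It had a log2 fold change of -1.08 ± 0.26 (edgeR FDR 0.0117) and only 17 to 52 counts in a rat of that year.

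**Figure D5:**
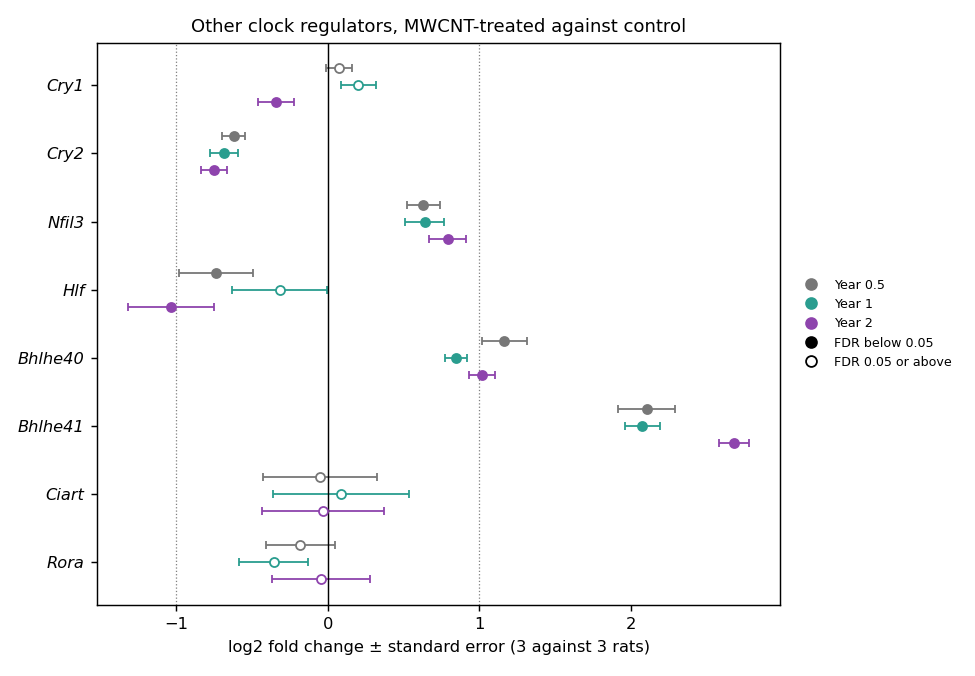
Log2 fold change in MWCNT-treated against control rats, with its standard error, of 8 further clock regulators at Years 0.5, 1, and 2 (3 against 3 rats). Filled points have an FDR below 0.05. Bhlhe41 lies at 2.08 to 2.68, Bhlhe40 and Nfil3 also lie right of 0, and Cry2 lies at -0.75 to -0.62.

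Of 11 genes that are rhythmic in many tissues, 5 rose and 1 fell at Year 0.5, 3 rose and 2 fell at Year 1, and 6 rose and 2 fell at Year 2. Of all genes tested, 20.2%, 21.6%, and 25.2% rose and 18.6%, 19.6%, and 24.0% fell at these years. Usp2, a ubiquitin protease of the clock, fell by 0.80 ± 0.23, 1.12 ± 0.21, and 1.16 ± 0.22 and was a DEG at Years 1 and 2 (edgeR FDR 0.00276 and 0.00202). Litaf, which is also induced in inflammation, rose by 1.04 ± 0.07, 1.14 ± 0.10, and 1.15 ± 0.07 and was a DEG at every year, and Lonrf3 rose by 0.73 ± 0.15, 0.88 ± 0.12, and 1.06 ± 0.13. Of the 8 glucocorticoid-induced genes, 1 rose and 1 fell at Years 0.5 and 1, and 4 rose and 1 fell at Year 2. These counts stand beside the same shares of all genes. The one that rose at every year was Sgk1, by 0.74 ± 0.08, 0.92 ± 0.10, and 1.32 ± 0.09, and the one that fell was Dusp1, by 0.62 ± 0.11, 0.88 ± 0.17, and 0.73 ± 0.11.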

How the data were processed

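RNA-seq of lungs from 18 rats in 6 groups was analysed. The authors mapped reads in CLC Genomics Workbench, and the submitters' processing notes name the builds Rnor_6.0 and rn6. They deposited the count of reads per gene and the TPM of each rat. The handling of reads with several hits, and any use of strand, are not given in the sources used here. The 36 deposited columns of RPKM and CPM per rat, and the authors' comparison columns (fold changes, p-values, and means), were not used. Counts of the 3 tables were joined by gene and analysed in R 4.3.3 with edgeR 4.0.16 after filterByExpr (minimum count 10, minimum total count 15) and TMM. Treatment was tested in the 6 rats of each year, and years and interactions in one model of 18 rats. Standard errors are the log2 fold change divided by the square root of F. The Benjamini-Hochberg FDR covers all genes tested. Correlations used log2 CPM with a prior count of 2 and exact permutation in Python 3.11.15. The genes named are all 10 clock genes, a set of further clock regulators, at most 3 genes with the lowest FDR in each further list and comparison, and the 5 genes most like each of Dbp and Arntl. Some genes that this rule names are not reported here. The genes and lists were chosen with earlier results of these data known. The alternatives, including DESeq2 1.42.0, each rat left out, and a replicate block, are given in the closing section. The edgeR test was checked on simulated counts with planted changes as large as the fold limit for a DEG or larger. The correlation test was checked on a planted strong negative relation. Smaller changes, such as those of the clock genes, were not simulated. Same-numbered rats of a year are separate animals, and the correlation of their deviations ranged from -0.15 to 0.11 over 9 pairs, so the numbers pair no rats. With 3 rats per group, precision is limited by the spread between rats.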

Additional observations from a re-analysis of the deposited data

How the results depend on the processing

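Under FDR alone the counts of 0 DEGs became 5, 5, and 6 clock genes at Years 0.5, 1, and 2 and 1 from Year 0.5 to Year 2 in treated rats. On library size alone there was 1 DEG (lower) at each of Years 1 and 2, the log2 fold change of Per1 at Year 2 turned from 0.14 to -0.027, and the control rats of Years 0.5 and 2 gave 1 call at an FDR below 0.05. DESeq2 gave 2 calls in that comparison, where it called 1491 of all genes. It gave 1 between Years 1 and 2 in control rats, where it called 1747 of all genes. The count at an FDR below 0.05 at Year 0.5 was 3 with no filter on low counts and 2 in one model of all 18 rats. With the replicate block it was 8 at Year 1, and the block changed no other count by over 1.5 times. The replicate numbers pair no rats. The count of genes that moved with Arntl was 4, and it was 2 on library size only, 2 on log2(TPM + 0.1), 0 without the rats of Year 1, 1 without those of Year 2, 1 without the 2 rats farthest from the median, 0 in control rats only, and 1 in MWCNT rats only. The alternatives of the counts at an FDR below 0.05, and the control rats and MWCNT rats taken alone, were chosen after seeing the data. The cause of these changes was not tested.

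With each rat left out in turn, DEGs at Year 1 ranged from 0 to 2, and counts at an FDR below 0.05 ranged from 2 to 5 at Year 0.5, from 2 to 8 at Year 1, from 0 to 3 between Years 1 and 2 in control rats, and from 0 to 1 between Years 0.5 and 2 in treated rats. For treatment and for the years in control rats, log2 fold changes that turned in sign with a rat left out, none of them called, were those of Clock (-0.12 to 0.011), Dbp (-0.19 to 0.13), and Per2 (-0.014 to 0.44) at Year 0.5. In control rats they were those of Arntl (-0.0028 to 0.25), Dbp (-0.081 to 0.36), Per2 (-0.38 to 0.055), and Per3 (-0.13 to 0.21) between Years 1 and 2, and of Nr1d2 (-0.016 to 0.15) and Per1 (-0.088 to 0.38) between Years 0.5 and 2. Over all alternatives, 17 of 30 values of the years in treated rats and 8 of 30 interactions also took both signs, with no call among them. Of those given, Tef, Per3, and Nr1d1 from Year 0.5 to Year 1 in treated rats ranged from -0.16 to 0.13, from -0.13 to 0.12, and from -0.21 to 0.39.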
